A study of Drosophila melanogaster with 4 samples.

Results

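The methuselah family groups insect G protein-coupled receptors of the secretin-like class, named after methuselah (mth), whose mutants are long-lived and stress-resistant. The count table held 16 genes of this family among 17494 genes, and 10 of them are described here: mth, mthl1, mthl3, mthl4, mthl5, mthl8, mthl9, mthl10, mthl14 and mthl15. These 10 were selected on their read counts in the same 4 libraries, as the family genes with enough reads, taken by symbol and matched by FlyBase gene identifier to the count table. Results of the contrast were known when they were chosen, so the values below describe that contrast and are not independent evidence of it. All 10 passed a filter on low counts (about 10 counts or more in a group of libraries), whereas mthl2, mthl6, mthl7, mthl11, mthl12 and mthl13 did not. Just inside the filter was mthl15 with 66 counts summed over the libraries, and just outside it was mthl11 with 25, so presence in these cells is a property of the choice.

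The cells were flight muscle myoblasts, the precursors of the adult flight muscle that sit on the wing disc, collected at 0 hours after puparium formation (APF) from Drosophila melanogaster raised at 29 °C and isolated by FACS gating for live GFP-positive cells. In both groups Mef2-Gal4 drove UAS-GFPnls and an RNAi hairpin, which was UAS-Y RNAi (against yellow, y) in the 2 control libraries (replicates 2 and 3) and UAS-Antp RNAi (against the Hox gene Antennapedia, Antp) in the 2 Antp RNAi libraries (replicates 1 and 2). Mef2-Gal4 is active in these myoblasts from the third larval instar, a single Antp hairpin line was used, and each library pooled 30 to 35 discs and about 50000 cells. The labels are not uniform: the protocol names UAS-GFP::Gma and a wild-type cross where the genotype names UAS-GFPnls and the y hairpin, and the strain background differs along with the hairpin. The labels speak of biological replicates and the study's methods of technical ones, so p-values here measure the spread between these libraries, which may be technical.

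Known roles differ between the members. Stunted peptides, encoded by sun, activate Mth, and Sex peptide (SP) can activate it in cultured cells. Mthl1, also called Mist, is a receptor for the secreted protein Folded gastrulation (Fog) in the embryo, where it acts together with the receptor Smog through the G protein alpha subunit Concertina (cta) and myosin to contract the apical side of invaginating cells. Mthl10 is a receptor for growth-blocking peptides, small cytokine-like peptides that link nutrition, growth and immune responses, and Mthl5 takes part in heart morphogenesis. In general, ligand binding to such receptors exchanges the nucleotide on a heterotrimeric G protein, whose subunits act on adenylyl cyclases, phospholipases and other effectors, and receptor kinases with arrestins end the signal.

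Library totals were 53082579 and 53957914 counts in the control and 42110502 and 46817694 counts in the Antp RNAi libraries, where a floor of 3 counts corresponds to between 0.0556 and 0.0712 CPM, which are counts divided by the library's scaled total. Myoblast markers such as twi, Him, zfh1 and htl were abundant, and the 10 markers of that list summed to between 10684 and 12427 CPM in the 4 libraries. At an adjusted p under 0.05 (edgeR), Ama and ct of this list fell, with log2 fold changes of −1.42 and −0.86. At the same threshold hbs rose, with 0.70. The other 7 were not called, and over all genes tested 2.58% were. Of the 10 markers, 7 had an unadjusted p under 0.05 (edgeR), beside 11.5% of all genes tested. DESeq2 called 4 of them at an adjusted p under 0.05, beside 3.64% of the genes it tested. Antp, the target of the hairpin, was counted 10214 and 9356 times in the control against 5723 and 6629 times after Antp RNAi, a log2 fold change of −0.38 (SE 0.11) that missed the threshold (adjusted p = 0.145, edgeR quasi-likelihood). Reads of y were absent from both control libraries (0 counts) and numbered 382 and 365 in the Antp RNAi libraries. Among 10360 genes tested over all libraries, 48 passed the study's threshold of an adjusted p under 0.001 and 267 a looser one of 0.05, and the median log2 fold change was −0.012.

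The family was led by mth in every library. CPM divided by the exon length in kilobases, the scale used for levels between genes, averaged 40.9 for mth, 15.8 for mthl1, 13.6 for mthl10, 9.82 for mthl3 and 7.84 for mthl5. Next came mthl4 at 3.26, mthl8 at 3.16 and mthl14 at 0.921 CPM per kb, and the order ended with mthl9 at 0.474 and mthl15 at 0.121. By the same measure mth lay at percentile 77.4 of all genes tested, mthl1 at percentile 53.6 and mthl10 at percentile 50.0, whereas mthl9 lay at percentile 13.8 and mthl15 at percentile 3.21. These receptors therefore ranged from a level well above the median gene to one near the lower limit of the genes tested.

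Several neighbours in this order could not be separated by their spread over the 4 libraries. The ranges of mthl1 and mthl10, of mthl10 and mthl3, of mthl3 and mthl5, of mthl4 and mthl8, and of mthl8 and mthl14 overlapped, whereas mth stood above mthl1, mthl5 above mthl4, mthl14 above mthl9 and mthl9 above mthl15 in every library. Some of the overlap came from members whose place changed between the groups. In the control libraries mthl8, at a mean of 0.432 CPM per kb, came below mthl4 at 2.48 and mthl14 at 0.826 in both libraries, whereas its range overlapped that of mthl9 at 0.510. After Antp RNAi mthl8, at 5.90, was above mthl4 at 4.05 and mthl14 at 1.02 in both libraries. The mean of mthl10 was 16.6 CPM per kb in the control, where its range overlapped that of mthl1, and 10.7 after Antp RNAi, where its range overlapped that of mthl3.

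**Figure D1:**
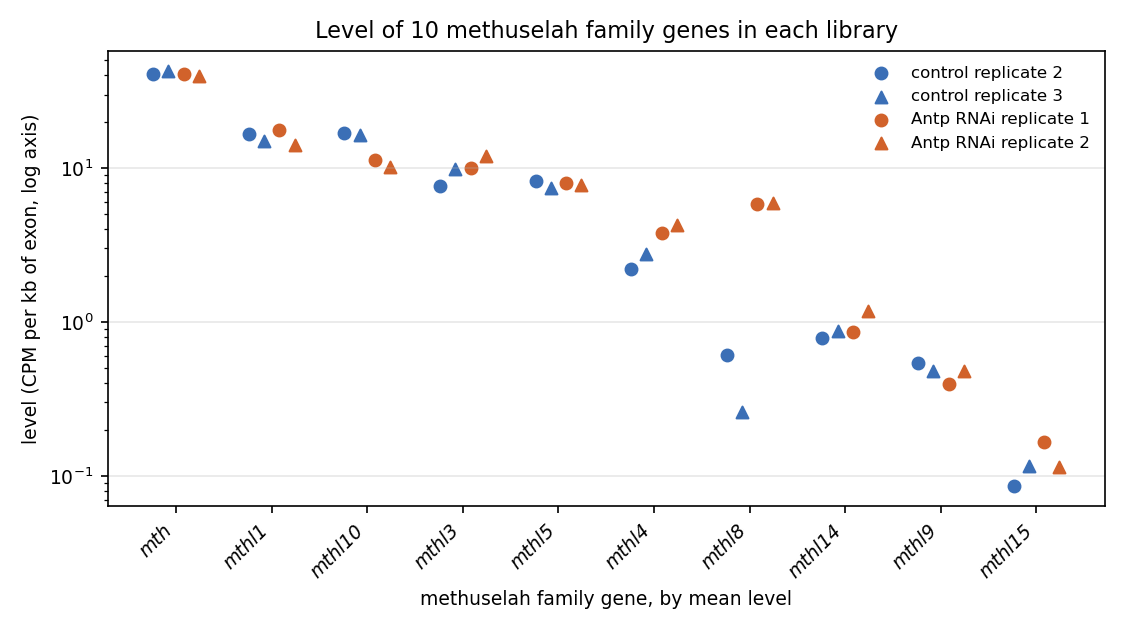
Level of each of the 10 methuselah family genes in each library, as CPM per kb of exon on a log axis, with genes ordered by their mean and 1 point per library. The points of mth sit between 39.7 and 42.4, the points of mthl8 run from 0.258 in a control library to 5.92 in an Antp RNAi library, and both Antp RNAi points of mthl10 lie below both control points.

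Summed over the 10 genes, the family had a like level in both groups, with different shares of mthl8 and mthl10. The sum was 299 and 294 CPM in the control libraries and 305 and 287 CPM after Antp RNAi, that is, 296 ± 3.12 against 296 ± 12.7 CPM (mean ± SD, n = 2 each), or 99.96% of the control. Without mthl8 the sum was 295 ± 2.28 against 276 ± 12.8 CPM, or 93.6% of the control. Of the family's summed level per kb, mthl8 made up 0.457% in the control and 6.08% after Antp RNAi, and mthl10 made up 17.5% and 11.0%. The share of mth was 43.8% and 41.4%, and mth, mthl1 and mthl10 together made up between 66.9% and 78.8% in each library.

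Between the groups, mthl8 rose at an adjusted p under 0.001, mthl10 fell at an adjusted p under 0.05, and the other 8 members passed neither threshold. Of all genes tested, 0.463% passed the first threshold (0.203% higher and 0.261% lower) and 2.58% the second (1.36% higher and 1.22% lower). The median log2 fold change of the 10 members was 0.15, with 7 positive and 3 negative values, and 7 of the 10 lay within 0.5 of 0. For 6 members the CPM ranges of the groups were separate, of which mthl3, mthl4 and mthl8 were higher and mth, mthl9 and mthl10 lower after Antp RNAi, beside 40.6% of all genes tested. DESeq2 placed both mthl8 and mthl10 under 0.001, where it called 1.93% of the genes it tested. In sorted bulk samples, more cells that express a gene and more of its RNA per cell cannot be told apart.

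**Figure D2:**
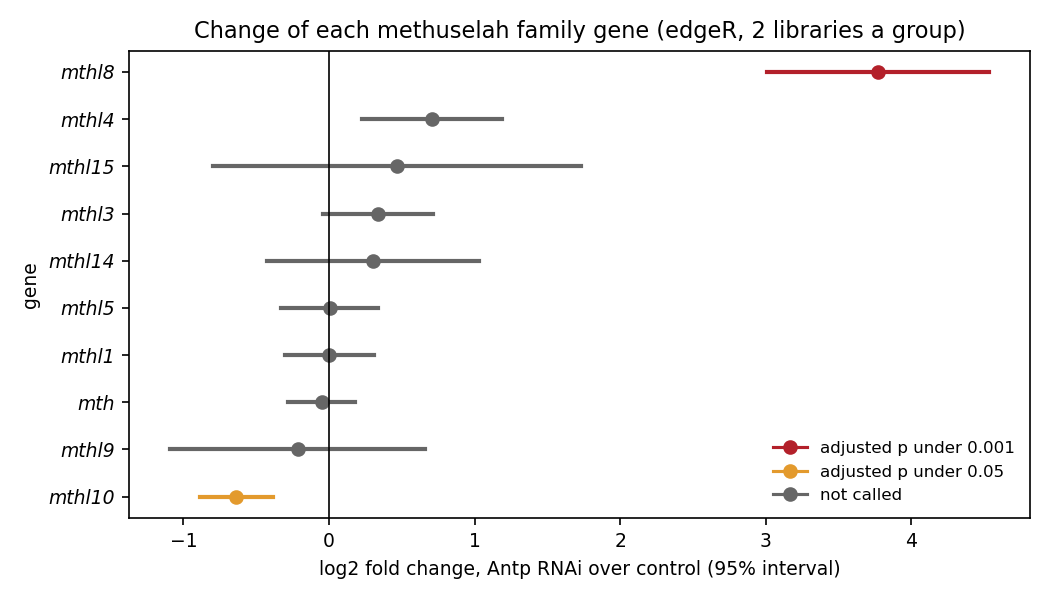
Log2 fold change of each methuselah family gene, Antp RNAi over control, with its 95% interval from the edgeR fit over all genes (2 libraries a group). The interval of mthl8 runs from 3.01 to 4.53 and that of mthl10 from −0.89 to −0.38, and among the members that were not called the interval of mthl4 lies above 0.

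The mthl8 gene (FBgn0052475) lies at 3L:22428-26308 on the plus strand of release 6 (dm6), is protein-coding with 7 exon blocks and 3413 exon bases, and was the first gene of chromosome arm 3L in the table. The counts were 110 (control replicate 2), 48 (control replicate 3), 850 (Antp RNAi replicate 1) and 929 (Antp RNAi replicate 2), which is 2.07, 0.881, 20.0 and 20.2 CPM. Both Antp RNAi libraries were high and close to each other, both control libraries were low, and the groups did not overlap. The level was 1.48 ± 0.841 CPM in the control and 20.1 ± 0.113 CPM after Antp RNAi (mean ± SD, n = 2 each), a 13.6-fold difference of the means. The control libraries differed 2.35-fold between themselves and the Antp RNAi libraries 1.01-fold. The log2 fold change was 3.77 (SE 0.33, 95% interval 3.01 to 4.53, adjusted p = 8.06e-04 by edgeR's quasi-likelihood test with Benjamini-Hochberg adjustment), the 20th highest of 10360 genes.

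With all 4 libraries in edgeR, the call of mthl8 lay close to the threshold under each scaling tried and under a stricter filter. Its adjusted p was 0.00103 with median-of-ratios factors, 0.00111 with upper-quartile scaling, 0.00120 with a stricter filter and 3.80e-04 with library totals. With every gene of at least 1 count tested it was 2.52e-06. Other tools gave 6.99e-04 (limma-voom) and 1.45e-34 (DESeq2). Without control replicate 3 the log2 fold change was 3.29 and without control replicate 2 it was 4.53. With a single control library left, the difference between the controls does not enter the fit, so its p-value cannot show whether the call holds. Of 6 fat body markers, apolpp (a lipoprotein of the fat body) also rose, with 22, 42, 1121 and 564 counts, and it brought the sum of the list from 1.24 and 1.40 CPM in the control to between 12.4 and 27.2 CPM after Antp RNAi. Apoltp, the other one tested, had 42, 34, 26 and 4 counts, and Lsp2 and Fbp1, which define the late larval fat body, had 0 counts in every library. The part of such cells in the mthl8 level was not tested.

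Of the genes around mthl8, none passed the test in either direction, and most had too few counts to be tested. Within 100 kb of it lay 10 other genes, with at most 17 counts in any library and sums over the 10 of 45 and 52 counts in the control and 16 and 35 counts after Antp RNAi. The direct neighbour CG43149, 27564 bases away, had 1 count in control replicate 3 and 0 elsewhere, and 3 of the 10 genes had 0 counts in all libraries. The nearest gene that could be tested was lncRNA:CR43150, 44.5 kb away, with counts of 13, 14, 1 and 10 (log2 fold change −1.02, SE 0.85, adjusted p = 0.774 by edgeR). The other one was CG13405, with 11, 17, 3 and 10 counts. Both were lower after Antp RNAi on average, and neither passed the test.

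Over the 324.5 kb from mthl8 to the far end of mth, the table held 64 genes, of which 51 were tested and 5 were members (mthl8, mthl14, mthl9, mthl10 and mth). Of the 46 others, edgeR called 0 at an adjusted p under 0.05, with 5 at an unadjusted p under 0.05, beside 11.5% of all genes tested. For these others limma-voom called 0 and DESeq2 called 1, beside 3.64% of the genes DESeq2 tested. Their log2 fold changes ran from −1.51 (Kaz1-ORFA) to 0.59 (CG13877) with a median of −0.078, and the lowest adjusted p was 0.0716 (miple1).

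**Figure D3:**
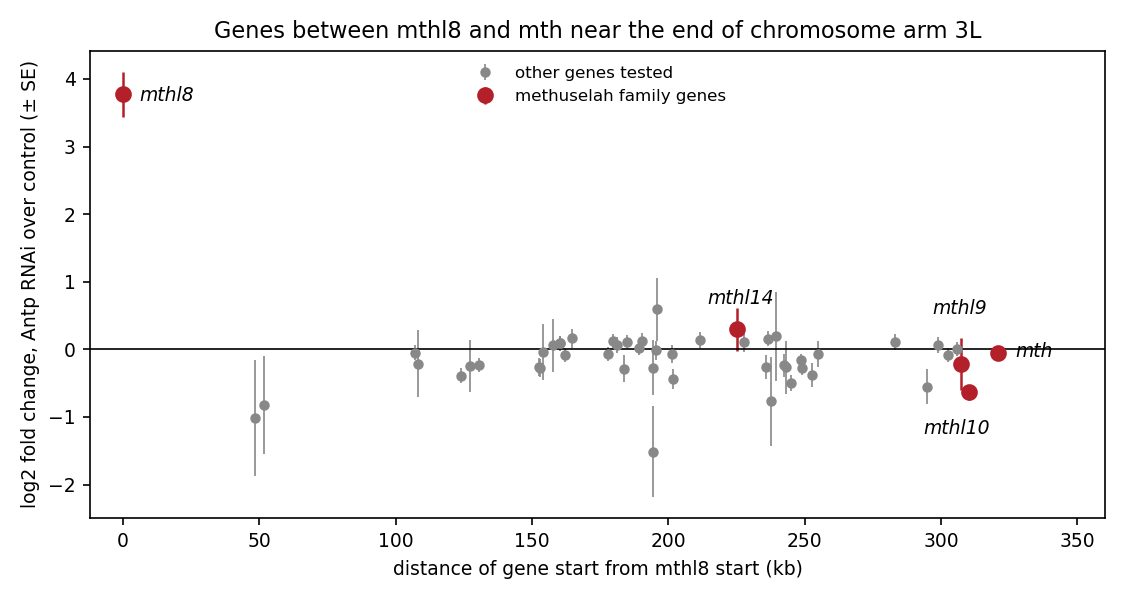
Log2 fold change (± SE) of each gene tested between mthl8 and mth near the end of chromosome arm 3L, against the distance of its start from the start of mthl8 in kb. The point of mthl8 at 3.77 stands above all 46 other genes shown in grey, which lie between −1.51 and 0.59, and above the other 4 family genes in red.

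Over the 4 libraries, the gene whose profile lay closest to that of mthl8 was tumorous testis (tut), a translational repressor of the germline, at a Euclidean distance of 0.267 on centred log2(CPM + 0.1) values. Its counts were 35, 15, 257 and 284, so that, like mthl8, it was lower in control replicate 3 than in replicate 2. The next were CG17549, at 0.543, with 22, 16, 268 and 302 counts, and Marf1, a regulator of oocyte meiosis, at 0.641, with 532, 359, 3556 and 3547 counts. With 4 libraries in 2 groups, such a distance mainly records a shared difference between the groups.

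The mthl10 gene (FBgn0035132), for the receptor of growth-blocking peptides, lies at 3L:332801-342915 on the minus strand, with 10 exon blocks, 4166 exon bases and 7 annotated transcripts. Its counts were 3743 and 3693 in the control and 1976 and 1947 after Antp RNAi, or 70.4, 67.8, 46.6 and 42.4 CPM. Both Antp RNAi libraries were below both control libraries. The level was 69.1 ± 1.87 CPM in the control and 44.5 ± 3.01 CPM after Antp RNAi (mean ± SD, n = 2 each), which is 64.4% of the control. The log2 fold change was −0.64 (SE 0.11, 95% interval −0.89 to −0.38, adjusted p = 0.0227 by edgeR), the 709th lowest of 10360 genes.

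The fall of mthl10 had an adjusted p of 0.187 when control replicate 2 was left out and of 0.0832 when replicate 3 was, each with a single control library remaining, with log2 fold changes between −0.70 and −0.55 over the 4 libraries left out in turn. Of 8 hemocyte markers 5 were tested, and Pxn and NimC1 also fell at an adjusted p under 0.05 (edgeR). The list summed to between 197 and 211 CPM in the control and between 48.9 and 50.8 CPM after Antp RNAi, and nearly all of it was Pxn, an extracellular matrix peroxidase of hemocytes, with 9015, 8222, 296 and 262 counts, and crq, a scavenger receptor, with 2094, 2398, 1824 and 1952 counts and a log2 fold change of 0.035. Among the defining markers, NimC1 had 44, 45, 1 and 1 counts, Hml had 10 counts in control replicate 2 and 0 elsewhere, and eater had 0, 2, 0 and 1, and without its most abundant genes, Pxn and crq, the list summed to between 2.28 and 2.33 CPM in the control and between 0.761 and 0.826 CPM after Antp RNAi. The part of hemocytes in the mthl10 level was not tested.

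The profiles most like that of mthl10 over the 4 libraries were those of spichthyin (spict), a regulator of BMP receptor traffic, at a distance of 0.0305, with 3577, 3480, 1912 and 1881 counts, and SKIP, at 0.0382, with 61500, 62586, 33602 and 32679 counts. Both also fell at an adjusted p under 0.05 (edgeR), with log2 fold changes of −0.61 and −0.62. The third, CG6426, at 0.0470, had 22, 21, 10 and 9 counts and did not pass the test.

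Together with mth and mthl9, mthl10 forms a cluster of 3 family genes on the minus strand, separated by 491 bases (mthl9 to mthl10) and 462 bases (mthl10 to mth) and lying within the span of Ptpmeg, a protein tyrosine phosphatase gene on the plus strand. For mth (FBgn0023000, 3L:343378-346957) the counts were 5245 and 5586 in the control and 4166 and 4414 after Antp RNAi, or 98.7, 103, 98.3 and 96.0 CPM. The groups did not overlap, but they lay close together, at 101 ± 2.71 and 97.1 ± 1.59 CPM (mean ± SD, n = 2 each). For mth the log2 fold change was −0.051 (95% interval −0.28 to 0.18). Of the genes in this cluster, mth was thus measured with the most counts, and its interval leaves out the fall measured for mthl10.

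For mthl9 (FBgn0035131, 3L:329822-332309) the counts were 61 and 56 in the control and 36 and 47 after Antp RNAi, or 1.15, 1.03, 0.849 and 1.02 CPM. Antp RNAi replicate 2 lay just below control replicate 3, and the log2 fold change of −0.22 had an interval from −1.09 to 0.66, wide enough to hold both no change and the change of mthl10. Ptpmeg itself had a log2 fold change of 0.0077 (SE 0.10, adjusted p = 0.990 by edgeR). CG1231, next to Ptpmeg, had 27, 24, 8 and 8 counts. It was the 1 gene with an unadjusted p under 0.05 (edgeR) among 31 tested neighbours of the members (up to 3 on each side). Over all genes tested, 11.5% had such a p. Of those 31, edgeR, DESeq2 and limma-voom each called 0 at an adjusted p under 0.05.

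The pair mthl4 and mthl3 on chromosome arm 2R, 1049 bases apart on the minus strand, was higher after Antp RNAi without passing the test. For mthl4 (FBgn0034219, 2R:17445185-17447483) the counts were 226 and 289 in the control and 311 and 381 after Antp RNAi, or 4.25, 5.30, 7.34 and 8.29 CPM. Both Antp RNAi libraries were above both control libraries, at 7.81 ± 0.674 against 4.78 ± 0.744 CPM (mean ± SD, n = 2 each), or 163% of the control. The log2 fold change was 0.71 (SE 0.21, 95% interval 0.23 to 1.19, adjusted p = 0.165 by edgeR), and over the 4 libraries left out in turn it ran from 0.58 to 0.89.

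For mthl3 (FBgn0028956, 2R:17448533-17452598) the counts were 1009 and 1334 in the control and 1066 and 1369 after Antp RNAi, or 19.0, 24.5, 25.1 and 29.8 CPM. The groups did not overlap, but control replicate 3 and Antp RNAi replicate 1 lay next to each other. The fitted log2 difference was 0.34 (SE 0.16, 95% interval −0.039 to 0.71, adjusted p = 0.513 by edgeR). Members of such clusters may share reads through similar sequence, and how reads that map to several places were counted is not given in the sources used here.

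The Fog receptor gene mthl1 (FBgn0030766, X:16640968-16650309, plus strand) did not differ in level between the groups beyond the spread of its libraries. The counts were 4518, 4120, 3779 and 3303, or 85.0 and 75.6 CPM in the control and 89.1 and 71.8 CPM after Antp RNAi. The highest and the lowest library were both Antp RNAi libraries, and the means were 80.3 ± 6.64 and 80.5 ± 12.2 CPM (SD, n = 2 each). The interval of the log2 fold change, 0.0028, ran from −0.30 to 0.31, and even its sign depends on the scaling.

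The heart gene mthl5 (FBgn0037960, 3R:11883938-11887168, minus strand) behaved alike, with 857, 785, 662 and 692 counts, or 16.1, 14.4, 15.6 and 15.1 CPM. The Antp RNAi libraries lay between the control libraries, and the log2 fold change of 0.0061 (95% interval −0.33 to 0.34) changes sign with the scaling as well. The gene lies within the span of CG31368 on the other strand, whose log2 fold change was 0.078 (SE 0.11). The intervals of mth, mthl1 and mthl5 leave out a change of the size fitted for mthl10.

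The 2 remaining members had few counts and wide intervals. For mthl14 (FBgn0052476, 3L:247491-250305, plus strand) the counts were 87, 99, 76 and 113, with overlapping groups and a log2 fold change of 0.30 (95% interval −0.43 to 1.03), and 77 of its exon bases (3.68%) are shared with DIP2. For mthl15 (FBgn0051720, 2L:10234585-10238317, minus strand) the counts were 13, 18, 20 and 15, also overlapping, with a log2 fold change of 0.46 (95% interval −0.80 to 1.73). Both intervals include a 2-fold increase.

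The other 6 family genes were at or near 0. Of these, mthl6 and mthl12 had 0 counts in every library, mthl13 had 1 count in Antp RNAi replicate 2, and mthl2 had 3, 6, 0 and 7 counts. The remaining 2 were higher in both Antp RNAi libraries than in either control library, mthl7 with 2, 2, 7 and 12 counts and mthl11 with 2, 5, 8 and 10. These counts are low, and 40.6% of all genes tested had separate CPM ranges in the groups. No test was made for these 6 genes, since none passed the filter.

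Among genes for ligands, sun and fog were measured at levels that could be tested. Counts of fog were 2471 and 2575 in the control and 3309 and 2879 after Antp RNAi, or 46.5, 47.3, 78.0 and 62.6 CPM. Both Antp RNAi libraries were above both control libraries, and the log2 fold change of 0.58 (SE 0.13) missed the looser threshold (adjusted p = 0.0622 by edgeR). The sun gene had 3162, 3536, 1558 and 2472 counts, or 59.5, 64.9, 36.7 and 53.8 CPM, with a log2 fold change of −0.46 (SE 0.17, adjusted p = 0.322). Both Antp RNAi libraries lay below the control libraries, and they differed 1.46-fold from each other.

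Of the genes for growth-blocking peptides, only Gbp1, Gbp2 and Gbp3 were looked up, and these and SP were almost without counts in these cells. Gbp2 and Gbp3 had 0 counts in every library, Gbp1 had 1 count in control replicate 2, and SP had 2 counts in Antp RNAi replicate 2. At these depths a count of 0 allows up to 0.0712 CPM in the shallowest library. Of the 6 ligand genes 2 were tested, and edgeR called 0 at an adjusted p under 0.05. Both had an unadjusted p under 0.05, beside 11.5% of all genes tested, and DESeq2 called 1, beside 3.64% of the genes it tested.

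Of 10 other family B and adhesion receptors, 5 were tested, and edgeR and DESeq2 each called 0 at an adjusted p under 0.05. At an unadjusted p under 0.05 (edgeR) there were 2, beside 11.5% of all genes tested. The highest per kb were Cirl, the fly latrophilin, and CG15744. Cirl had 976 and 1069 CPM in the control and 779 and 810 CPM after Antp RNAi, a log2 fold change of −0.36 (SE 0.10, adjusted p = 0.131). Per kb of exon, Cirl was at 101.6 CPM, above mth at 40.9. CG15744 had a log2 fold change of 0.12 (SE 0.11).

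All 11 genes for heterotrimeric G protein subunits were tested, and Gbeta76C, the G beta subunit of photoreceptors, fell at an adjusted p of 0.0255 (edgeR). Its counts were 23 and 67 in the control and 0 in both Antp RNAi libraries, which against a floor of 3 counts per library is at least 12.2-fold lower (6.36-fold from control replicate 2 alone and 18.1-fold from replicate 3 alone). Gbeta76C passed the filter on low counts through the control libraries alone, so its call is a description of these counts. The other 10 did not pass, and the median log2 fold change of the 11 was −0.076. Galphai and Gbeta13F were the highest per kb, with log2 fold changes of −0.010 and −0.024. The Fog pathway subunit cta had 40.6 ± 3.68 and 41.7 ± 3.63 CPM (mean ± SD, n = 2 each).

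None of the other genes of the Fog pathway passed the test. All 6 genes of this list, among them smog, sqh (the myosin regulatory light chain) and T48, were tested. At an adjusted p under 0.05 edgeR and DESeq2 each called 0. T48 alone had an unadjusted p under 0.05 (edgeR), beside 11.5% of all genes tested. Their median log2 fold change was −0.019, and T48, which encodes a membrane protein that acts in embryonic gastrulation, had the highest value at 0.40 (SE 0.14, adjusted p = 0.254). The highest per kb was sqh, at 391.7 CPM per kb. The receptor genes of the pathway were lower, mthl1 at 15.8 and smog at 0.233 CPM per kb.

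Genes for receptor kinases, arrestins and regulators of G protein signalling showed log2 fold changes between −0.041 and 0.20. Of these 9, 6 were tested, edgeR called 0 at an adjusted p under 0.05, 0 had an unadjusted p under 0.05 and DESeq2 called 0. Gprk1, a receptor kinase, was the highest per kb at 56.4 CPM, followed by Axn, and kurtz (krz), the non-visual arrestin, was at 15.0 CPM per kb. The visual arrestin genes Arr1 and Arr2 had at most 6 counts in any library.

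Of 10 second messenger effector genes 8 were tested, and Itpr, the calcium channel opened by inositol trisphosphate, rose at an adjusted p of 0.0370 (edgeR). Its counts were 3542 and 3591 in the control and 3922 and 4582 after Antp RNAi, or 66.7, 65.9, 92.5 and 99.7 CPM. Both Antp RNAi libraries were above both control libraries, and the log2 fold change was 0.54 (SE 0.10). Leaving out control replicate 2 gave an adjusted p of 0.266, and leaving out control replicate 3 gave 0.319. Pka-C1, the catalytic subunit of protein kinase A, and Plc21C, a phospholipase C, were the highest per kb, with log2 fold changes of 0.083 and −0.053.

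Over these 6 lists, 38 of 52 genes were tested, and edgeR called 2 at an adjusted p under 0.05, beside 2.58% of all genes tested. At an unadjusted p under 0.05 there were 10, beside 11.5% of all genes tested, and DESeq2 called 4, beside 3.64% of the genes it tested. The median log2 fold change of the 38 was −0.017.

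**Figure D4:**
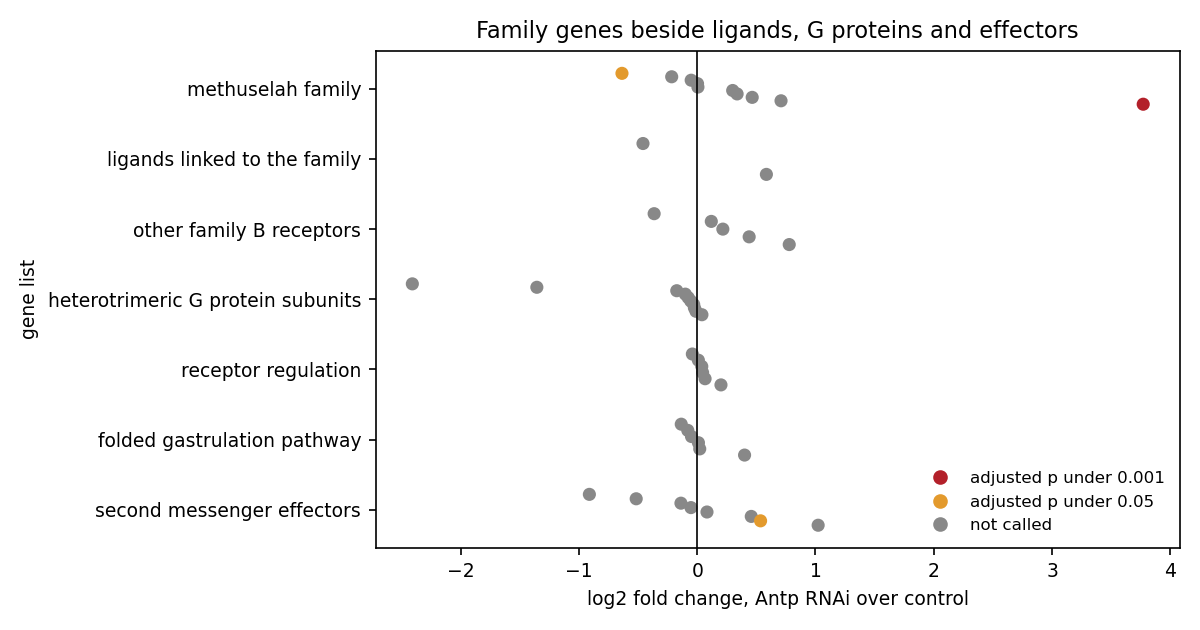
Log2 fold change, Antp RNAi over control, of each tested gene of the methuselah family and of 6 lists of ligands, receptors, G protein subunits, regulators and effectors, coloured by the adjusted p of edgeR. Gbeta76C is left out because both Antp RNAi libraries had 0 counts; mthl8 at 3.77 lies to the right of all other points, and mthl10 at −0.64 and Itpr at 0.54 are the points coloured for an adjusted p under 0.05 but not under 0.001.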

How the data were processed

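RNA was measured in 4 libraries of FACS-sorted 0-hour APF myoblasts, amplified with 10 cDNA and 12 library PCR cycles without molecular identifiers, so the floor of 3 counts covers counting error only. The count table deposited by the authors holds raw counts of reads on exons per gene, and other deposited columns give exon lengths and gene symbols. The submitters' processing notes name bcl2fastq 2.17.1.14, Subread, featureCounts, DESeq2 1.34 and dm6. The aligner settings, strand use and treatment of reads that map to several places are not given in the sources used here. The authors' own comparison (means, fold changes and p-values) was not used. Coordinates are those of the table, and all 16 family genes have the same start and end in Ensembl release 115.

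Counts were tested with edgeR 4.0.16 in R 4.3.3 (quasi-likelihood, two-sided, minimum count 10, TMM, Benjamini-Hochberg over 10360 genes), and genes were called at an adjusted p under 0.001, the study's threshold, or 0.05. CPM use TMM-scaled totals, SE is the log2 fold change divided by the square root of F, and intervals are at 95%. DESeq2 1.42.0, limma-voom (limma 3.58.1), other scalings and filters and each library left out were tried. The fits were tested on simulated data.

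The members and lists were chosen with earlier results of these data known. Lists of ligands, receptors, G proteins, regulators, the Fog pathway, effectors and cell markers were corrected for symbols and membership once the table was seen and before any fit. Of each list, the genes called at 0.05 and the 2 highest per kb were named (1 of the Fog pathway list is not reported here), with the 6 other family genes, the neighbours of mthl8 and the 3 profiles closest to each called member, by Euclidean distance of centred log2(CPM + 0.1). Other named genes were picked after their values were seen. Of the other marker lists, 8 disc epithelium genes summed to between 1789 and 1905 CPM, 4 tracheal genes to between 22.6 and 24.9 CPM and 5 neuron and glia genes to between 24.6 and 31.6 CPM over the libraries. Nearly all of the disc epithelium sum was Nrt, at means of 1599 CPM (control) and 1565 CPM (Antp RNAi), and ap, at 243 and 228 CPM. Each of its other genes had at most 12.4 CPM in any library. Among them, nub had 72, 240, 218 and 330 counts and wg had 11, 84, 39 and 174. Sequences were not analysed here.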

Additional observations from a re-analysis of the deposited data

How the results depend on the processing

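The genes called at an adjusted p under 0.001 over the whole table numbered 48, against 120 with every gene of at least 1 count tested, 236 with DESeq2, 17 among genes whose spans overlap no other gene, and between 153 and 228 with a library left out. Members called at 0.001 numbered 1, against 0 with median-of-ratios or upper-quartile scaling and with a mean of at least 100 counts required, 2 with DESeq2 and between 1 and 2 with a library left out. At 0.05 they numbered 2 under each other scaling, filter and tool, and between 1 and 2 with a library left out. Genes of the pathway lists called at 0.05 numbered 2, against 5 with every gene of at least 1 count, 1 with a mean of at least 100 counts, 4 with DESeq2 and between 1 and 9 with a library left out. The tested neighbours of the members called at 0.05 numbered 0, and between 0 and 6 with a library left out. The cause of these differences was not tested.

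The log2 fold change of mthl8 was 3.78 with median-of-ratios factors (adjusted p = 0.00103, edgeR), 3.75 with upper-quartile scaling (adjusted p = 0.00111) and 3.77 with a mean of at least 100 counts (adjusted p = 0.00120), each just past 0.001. It was 3.79 with DESeq2 (adjusted p = 1.45e-34) and 3.78 with every gene of at least 1 count (adjusted p = 2.52e-06, edgeR). With a library left out it lay between 3.29 and 4.53. That of mthl10 was −0.62 with DESeq2 (adjusted p = 2.99e-04) and between −0.70 and −0.55 with a library left out, with adjusted p values between 7.13e-04 and 0.187. Values that changed sign were those of mthl1, at −0.014 with upper-quartile scaling, −0.011 with library totals, −0.0043 with limma-voom and between −0.16 and 0.17 with a library left out, and of mthl5, at −0.011, −0.0092 with library totals and between −0.064 and 0.11 with a library left out. The other 6 members kept their direction under every alternative run. The summed level stayed between 96.9% and 103% of the control, and the median over all genes of the log2 fold change between −0.029 and 0.011.

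With a library left out, 1 library stands for its group and is assumed to vary like the others. No paired analysis was possible because replicate 2 is the one number found in both groups. Low counts limit mthl9, mthl14 and mthl15 in particular, and 2 libraries a group limit every interval.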
